A study of Mus musculus with 8 samples.

Results

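The nuclear-encoded subunits of the respiratory chain and ATP synthase were followed in mouse CD11b+ cells, a myeloid population marked by the integrin that Itgam encodes, before and after exposure to peptidoglycan (PGN), a bacterial cell wall polymer sensed by innate immune receptors. The set held 34 listed genes of 18193 genes with a usable probe set, all 34 of which were measured: 16 of complex I, 4 of complex II, 5 of complex III, 5 of complex IV and 4 of ATP synthase (complex V). Each gene was read from 1 probe set, the one with a single gene symbol and the highest mean over all arrays, and values were taken as log2 of the deposited linear values. The 8 arrays formed 4 groups of 2. NOD, the non-obese diabetic strain, and NOD.Idd3, a NOD congenic strain that carries a diabetes-resistance interval at the Idd3 locus, each gave unstimulated cells kept in medium and cells given 5 ug/ml PGN, all incubated for 4 h at 37 °C. The labels call the replicates biological but name neither animals nor tissue, so p-values measure the spread between these arrays. The age of the mice was not given in the sources used here.

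Oxidative phosphorylation passes electrons from NADH through complex I, or from succinate through complex II, to ubiquinone, then through complex III and cytochrome c to complex IV, which reduces oxygen. Complexes I, III and IV pump protons across the inner mitochondrial membrane, and ATP synthase uses the returning protons to make ATP. Macrophages and dendritic cells stimulated through Toll-like receptors are known to shift towards glycolysis, and succinate oxidation and reverse electron flow at complex I are linked to inflammatory signalling in macrophages.

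Arrays of a group had correlations of 0.986 to 0.992 over all genes, and array medians (log2) ranged from 6.38 to 6.65. Itgam lay between 7.87 and 9.02 (log2) on all arrays, Itgb2, its integrin partner, between 13.11 and 13.46, and Ptprc, the pan-leukocyte antigen CD45, between 12.24 and 13.30. Itgam and Itgb2 were lower with PGN in 4 of 4 pairs of arrays of one strain and replicate number, as were 19.3% of all genes. For Itgam the limma adjusted p was 0.163, and 0.0464 with the replicate number as a block. In these bulk samples, fewer cells of a type and less RNA per cell cannot be told apart.

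PGN, averaged over both strains, gave small differences in the 34 genes, most of them below 0. The estimate (PGN minus unstimulated, log2) was below 0 for 31 of 34 genes, with a median of -0.19 and a range from -0.46 to 0.36. Over all genes tested the median was 0.05, and over the 10916 genes at or above the 40th percentile of mean value it was -0.07. The 34 were brighter than most of those genes, with a median at percentile 89.7. Cox7c stood at percentile 43.8 and the rest at 77.2 or above. No comparison set was matched to their level. None of the 34 passed limma's moderated test at an adjusted p under 0.05, whereas 11.3% of all genes did. At an unadjusted p under 0.05, in the limma fit without a replicate block, there was 1 gene of the 34, Ndufa4, against 25.0% of all genes. With the replicate number as a block the count of the 34 that passed was again 0, against 16.9% of all genes. The 95% limma interval of all 34 genes lay within a 2-fold change either way, its lowest bound being -0.96 (Ndufb7) and its highest 0.77 (Uqcrfs1). Standard errors ran from 0.14 to 0.25, from 4 arrays per condition. These intervals and standard errors are from the fit without the block. With the block some standard errors were smaller, at 0.128 for Ndufa8, 0.15 for Ndufb7 and 0.132 for Atp5c1, against 0.212, 0.224 and 0.217. That of Uqcrb was 0.192 against 0.194. Unadjusted counts and intervals with the block are not given here.

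**Figure D1:**
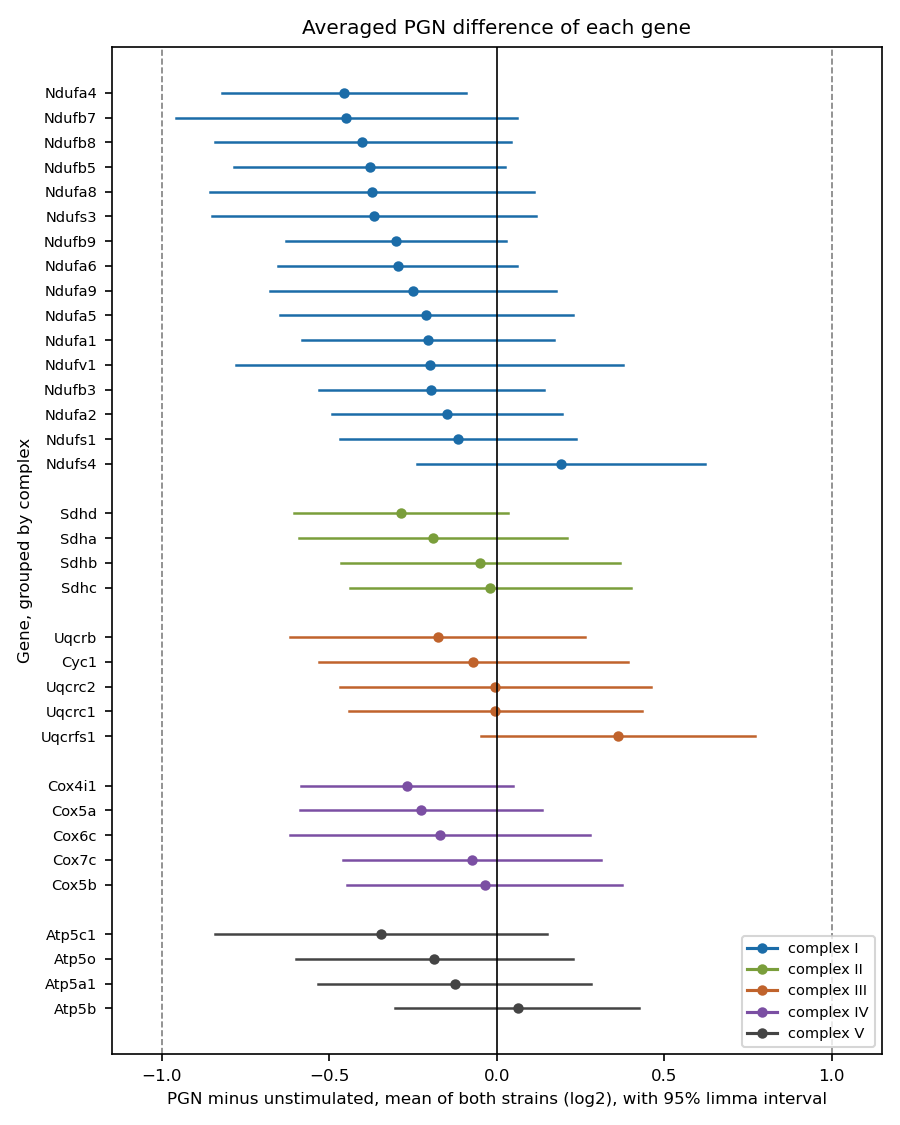
Averaged PGN difference of each of the 34 genes (horizontal axis, PGN minus unstimulated as the mean of both strains, log2), grouped by complex, with the 95% limma interval as a line and 4 arrays per condition. Intervals are from the fit without the replicate block. Dashed lines mark a 2-fold change, which no interval reaches, and Ndufa4 is the only gene whose interval does not cross 0.

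Complex I, the NADH dehydrogenase, had 15 of 16 genes below 0 and a median of -0.27. Ndufa4 stood lowest of the 34; it was named as a complex I gene, but its product is found in cytochrome c oxidase. Ndufa4 read 10.22 and 10.45 (log2, replicates 1 and 2) in unstimulated NOD, 9.69 and 10.16 in PGN-treated NOD, 10.82 and 10.86 in unstimulated NOD.Idd3, and 10.27 and 10.39 in PGN-treated NOD.Idd3. Each PGN array was below the unstimulated array of its own strain and replicate number, but the groups of both strains overlapped, since PGN-treated NOD.Idd3 sat at the level of unstimulated NOD. The averaged difference was -0.46 ± 0.16 (SE), with an adjusted p of 0.114 in limma and 0.0583 with the replicate block.

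Ndufb7 and Ndufb8, accessory subunits of the membrane arm, came next. Ndufb7 read 12.34 and 13.07 in unstimulated NOD, 11.88 and 12.44 in PGN-treated NOD, 12.85 and 12.95 in unstimulated NOD.Idd3, and 12.27 and 12.82 in PGN-treated NOD.Idd3. Its replicates lay further apart than the PGN difference of -0.45 ± 0.22 (limma adjusted p = 0.257) in every group but unstimulated NOD.Idd3. Ndufb8 read 10.93 and 11.58, then 10.71 and 11.07 with PGN in NOD, and 11.44 and 11.63, then 10.92 and 11.28 with PGN in NOD.Idd3. The lowest unstimulated array of Ndufb8 lay below the highest PGN array, and the difference was -0.40 ± 0.19 (limma adjusted p = 0.244).

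Ndufs4, an accessory subunit of the matrix arm needed for stable assembly, was the complex I gene above 0. Its values were 10.17 and 10.50 in unstimulated NOD, 10.29 and 10.58 in PGN-treated NOD, 10.33 and 10.65 in unstimulated NOD.Idd3, and 10.48 and 11.07 in PGN-treated NOD.Idd3. All 4 matched pairs, meaning arrays of one strain and replicate number, were higher with PGN, by 0.19 ± 0.19 on average (limma adjusted p = 0.579). The core subunits Ndufs1 (-0.12 ± 0.16), Ndufs3 (-0.37 ± 0.21) and Ndufv1 (-0.20 ± 0.25) did not pass either. The remaining accessory subunits lay between -0.38 (Ndufb5) and -0.15 (Ndufa2), and included Ndufa1 at -0.21 ± 0.17.

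Complex II, succinate dehydrogenase, also serves the TCA cycle, and its 4 genes had a median of -0.12. Sdhd, which encodes a membrane anchor subunit, read 10.83 and 10.73 in unstimulated NOD, 10.70 and 10.49 in PGN-treated NOD, 10.84 and 10.97 in unstimulated NOD.Idd3, and 10.58 and 10.45 in PGN-treated NOD.Idd3. All 4 PGN arrays were below all 4 unstimulated arrays, a pattern that 9.41% of all genes had, and the difference of -0.29 ± 0.14 did not pass (limma adjusted p = 0.251). The other Sdhd probe set gave -0.19, and its conditions overlapped, with a PGN array at 10.594 and an unstimulated array at 10.485. Sdha, the flavoprotein that oxidises succinate, read 11.32 and 11.64, then 11.03 and 11.31 with PGN in NOD, and 11.04 and 11.36, then 10.91 and 11.36 with PGN in NOD.Idd3. Its second replicate pair in NOD.Idd3 was level to within rounding, and the difference was -0.19 ± 0.18 (limma adjusted p = 0.554). A second Sdha probe set gave -0.57, and the mean of all its probe sets gave -0.48 with an adjusted p of 0.0434, so whether Sdha passed depended on the choice of probe set. Sdhb, the iron-sulfur subunit (-0.05 ± 0.18), and Sdhc, the other membrane anchor (-0.02 ± 0.19), lay near 0.

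Complex III, cytochrome bc1, had 4 of 5 genes below 0 and a median of -0.004, and held the highest of the 34 estimates. Uqcrfs1, the Rieske iron-sulfur protein, read 11.05 and 11.19 in unstimulated NOD, 11.37 and 11.72 in PGN-treated NOD, 11.08 and 11.44 in unstimulated NOD.Idd3, and 11.31 and 11.81 in PGN-treated NOD.Idd3. It was higher with PGN in all 4 matched pairs, although the groups overlapped, with a difference of 0.36 ± 0.18 (limma adjusted p = 0.256, and 0.107 with the replicate block). Of all genes 20.3% were higher in 4 of 4 pairs, and of the 34 only Uqcrfs1 and Ndufs4 were. Uqcrc1 and Uqcrc2, the core proteins, had differences of -0.004 ± 0.19 and -0.004 ± 0.20, and Cyc1, cytochrome c1, one of -0.07 ± 0.20.

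Uqcrb, which encodes a ubiquinone-binding subunit of complex III, read 12.90 and 12.43 in unstimulated NOD, 12.79 and 13.08 in PGN-treated NOD, 12.74 and 13.18 in unstimulated NOD.Idd3, and 12.57 and 12.10 in PGN-treated NOD.Idd3. With PGN the second replicate was higher in NOD and lower in NOD.Idd3, while the first replicate differed by -0.11 and -0.17. A second Uqcrb probe set had the same signs in replicate 2 with smaller differences, reading 11.63 unstimulated and 11.87 with PGN in NOD, and 11.97 and 11.74 in NOD.Idd3. In replicate 1 the second probe set read 11.56 and 11.52 in NOD, and 11.62 and 11.73 in NOD.Idd3. Its sign in replicate 1 of NOD.Idd3 was thus opposite to that of the probe set used. Its averaged PGN difference was 0.02. On the probe set used, Uqcrb had an unadjusted p under 0.05 in limma for the difference in PGN effect between strains (-0.89 ± 0.39, NOD.Idd3 minus NOD). It was the 1 gene of 34, where 1.73% of all genes had one. Its limma adjusted p was 1.00.

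Complex IV, cytochrome c oxidase, had 5 of 5 genes below 0 and a median of -0.17. Cox4i1, a nuclear-encoded subunit with a regulatory role, read 12.30 and 12.37 in unstimulated NOD, 12.02 and 12.24 in PGN-treated NOD, 12.52 and 12.67 in unstimulated NOD.Idd3, and 12.26 and 12.27 in PGN-treated NOD.Idd3. As for Sdhd, its PGN arrays all lay below its unstimulated arrays, with a difference of -0.27 ± 0.14 (limma adjusted p = 0.276). These 2 genes, 5.88% of the 34, were the ones with all PGN arrays below, against 9.41% of all genes, and 0 of 34 had all PGN arrays above, against 8.6%. Cox5b, the gene with the highest mean of the 34, read 13.14 and 13.60, then 13.03 and 13.38 with PGN in NOD, and 13.60 and 13.41, then 13.40 and 13.80 with PGN in NOD.Idd3. Its estimate of -0.04 ± 0.18 was above 0 with the mean of all its probe sets. Cox7c, the gene with the lowest mean, read 5.62 and 6.05, then 5.41 and 5.67 with PGN in NOD, and 5.59 and 5.91, then 5.80 and 6.01 with PGN in NOD.Idd3. Its estimate of -0.07 ± 0.17 was 0.16 from its only other probe set.

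ATP synthase had 3 of 4 genes below 0 and a median of -0.16. Atp5c1, the gamma subunit that turns inside the catalytic head, read 12.21 and 12.81 in unstimulated NOD, 11.82 and 12.25 in PGN-treated NOD, 12.42 and 12.75 in unstimulated NOD.Idd3, and 12.05 and 12.68 in PGN-treated NOD.Idd3. Every matched pair was lower with PGN, and the difference was -0.35 ± 0.22 (limma adjusted p = 0.372). Atp5b, the catalytic beta subunit, read 12.51 and 12.82, then 12.57 and 12.74 with PGN in NOD, and 12.35 and 12.64, then 12.48 and 12.78 with PGN in NOD.Idd3. Its difference of 0.06 ± 0.16 had no settled sign, being -0.02 without replicate 1 of unstimulated NOD. Atp5a1, the alpha subunit (-0.13 ± 0.18), and Atp5o, a stalk subunit (-0.19 ± 0.18), did not pass.

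**Figure D2:**
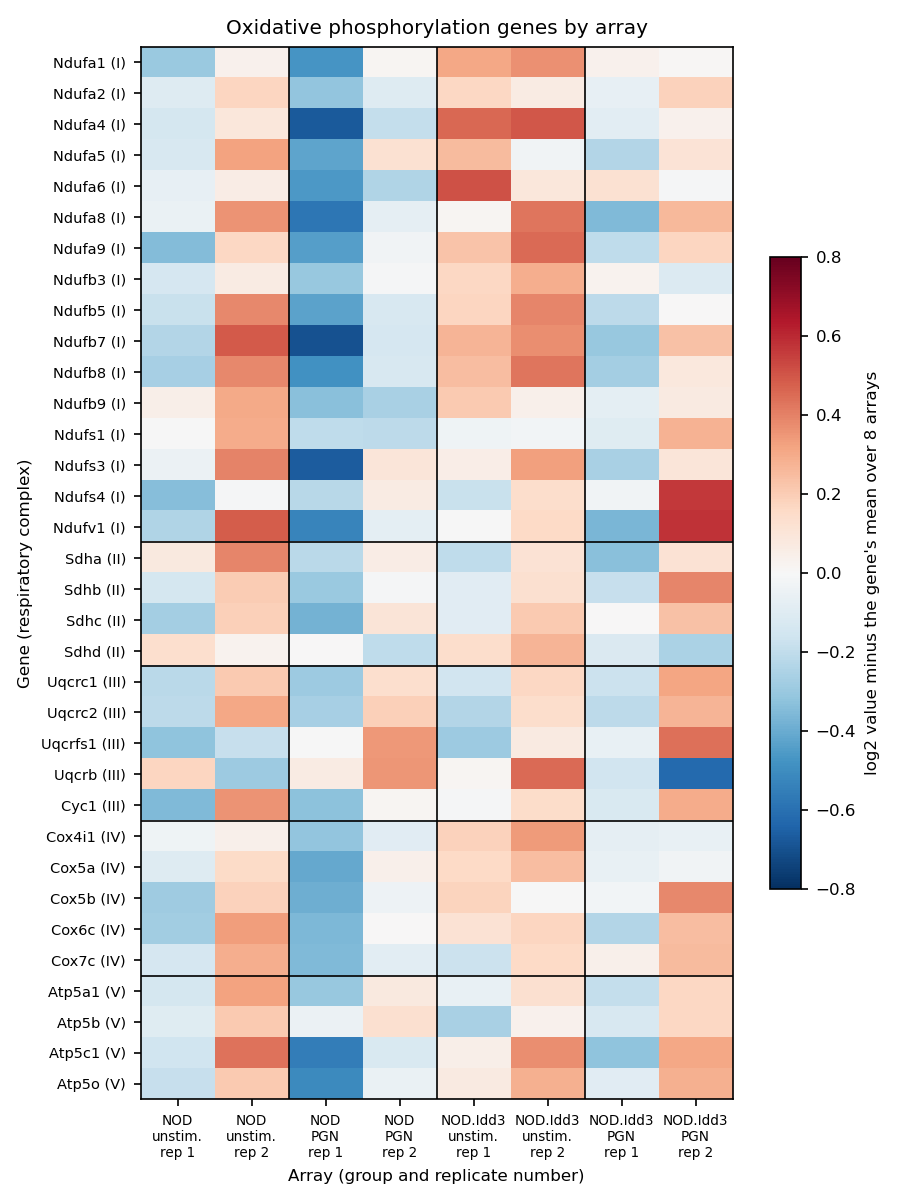
Log2 value of each of the 34 genes (rows, with the complex in brackets) on each of the 8 arrays (columns, by group and replicate number) minus the gene's mean over the 8 arrays. Columns of replicate 2 are redder than those of replicate 1 in most rows, and the bluest column is replicate 1 of PGN-treated NOD.

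In 3 of the 4 groups the replicate numbers lay further apart in these genes than PGN and unstimulated cells did, by the median. On average over the 34, the arrays stood at -0.15 and 0.22 (log2, relative to each gene's mean) in replicates 1 and 2 of unstimulated NOD and at -0.36 and -0.01 in PGN-treated NOD. In NOD.Idd3 they stood at 0.06 and 0.22 unstimulated and at -0.14 and 0.16 with PGN. The median difference between replicate 2 and replicate 1 was 0.40 in unstimulated NOD, 0.35 in PGN-treated NOD, 0.19 in unstimulated NOD.Idd3 and 0.36 in PGN-treated NOD.Idd3. For 24 of 34 genes (70.6%) replicate 2 was higher in all 4 groups, against 16.1% of all genes. The excess of the 3' over the 5' Gapdh control probe set, a measure of RNA or labelling quality, was higher in replicate 1 than in replicate 2 in all 4 groups, and that of Actb in 2 of them; their part in the replicate difference was not tested.

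Within replicate numbers, 15 of 34 genes (44.1%) were lower with PGN in 4 of 4 matched pairs, against 19.3% of all genes and 29.4% of genes at or above the 40th percentile. They were 10 of the 16 complex I genes (Ndufa1, Ndufa4, Ndufa6, Ndufa8, Ndufa9, Ndufb3, Ndufb5, Ndufb7, Ndufb8 and Ndufs3), with Sdha, Sdhd, Cox4i1, Cox5a and Atp5c1. The median over the 34 was -0.21 in replicate 1 and -0.25 in replicate 2 of NOD, and -0.23 in replicate 1 of NOD.Idd3. It was 0.01 in replicate 2 of NOD.Idd3, where 16 of 34 genes were below 0, against 28 to 31 in the other pairs. These counts are not independent, since the genes share arrays.

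**Figure D3:**
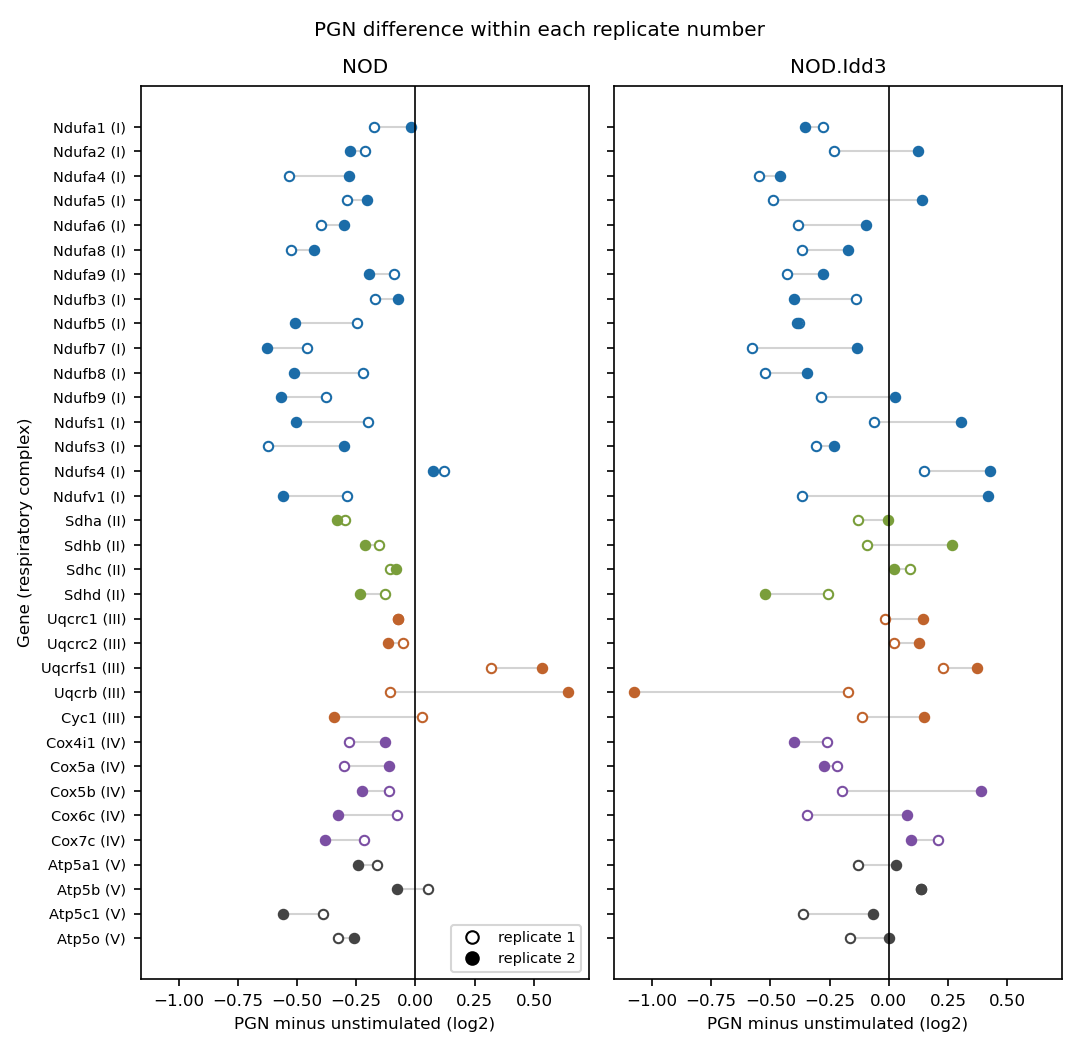
PGN minus unstimulated (log2) of each of the 34 genes within replicate 1 (open) and replicate 2 (filled), for NOD on the left and NOD.Idd3 on the right, coloured by complex. In NOD 30 and 31 of 34 points lie below 0, in NOD.Idd3 28 in replicate 1 and 16 in replicate 2, and the widest spread is that of Uqcrb in NOD.Idd3.

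Taken by strain, no gene of the 34 passed for PGN in NOD or in NOD.Idd3 by limma, where 3.94% and 3.14% of all genes did, and none passed with the replicate block, where 8.72% and 6.63% did. In NOD 31 of 34 were below 0 with a median of -0.21, and Ndufb9, an accessory subunit of complex I, was the 1 gene with an unadjusted p under 0.05 (-0.47 ± 0.20, adjusted p = 0.25), against 19.2% of all genes. In NOD.Idd3 22 of 34 were below 0 with a median of -0.13, and 0 had an unadjusted p under 0.05, against 15.4% of all genes. Leaving out replicate 1 of PGN-treated NOD.Idd3 turned that median to 0.09. The difference in PGN effect between strains passed for 0 of 34 genes and for 0.0% of all genes, with and without the block, and for the 34 the unadjusted count was the 1 of Uqcrb. Its median was 0.15, and was -0.08, -0.07 and -0.07 without replicate 2 of unstimulated NOD, replicate 1 of PGN-treated NOD and replicate 2 of PGN-treated NOD.Idd3 respectively. Intervals for this difference were wide, with 17 of 34 lying within a 2-fold change either way.

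Between the strains, averaged over both conditions, 30 of 34 genes had estimates above 0 (NOD.Idd3 minus NOD), with a median of 0.17. The median was -0.03 over all genes, 8116 of 18193 being above 0. Over genes at or above the 40th percentile of mean value it was 0.02, with 5873 of 10916 above 0. All 16 complex I genes and all 5 complex IV genes were above 0, with medians of 0.19 and 0.16. Of 40 further respiratory subunits 38 were above 0, with a median of 0.19. Limma called 0 of 34 genes and 0.0% of all genes, 1 of the 34 (Ndufa4) had an unadjusted p under 0.05 against 6.46% of all genes, and with the replicate block 0 of 34 and 0.148% of all genes passed. Ndufa4, whose array values are given above, had a strain difference of 0.46 ± 0.16 (adjusted p = 0.733, and 0.347 with the block). Ndufa1 followed at 0.36 ± 0.17, with 10.76 and 11.09 in unstimulated NOD, 10.59 and 11.08 in PGN-treated NOD, 11.37 and 11.42 in unstimulated NOD.Idd3, and 11.09 and 11.07 in PGN-treated NOD.Idd3. The lowest strain differences were those of Sdha (-0.16 ± 0.18) and Uqcrb (-0.15 ± 0.19).

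Of the 34, 10 genes (29.4%) were higher in NOD.Idd3 in 4 of 4 matched pairs, against 8.33% of all genes and 12.3% of genes at or above the 40th percentile, and 0 were lower in all 4, against 9.89% of all genes. For 0 of 34 were all NOD.Idd3 arrays above or below all NOD arrays, against 1.08% and 1.77% of all genes. The strain median depended on the pair: it was 0.21 in replicate 1 and -0.05 in replicate 2 of unstimulated cells, and 0.22 and 0.21 with PGN. In unstimulated cells the pooled median of 0.11 was -0.13 without replicate 1 of unstimulated NOD. Neither strain contrast at a single condition called a gene of the 34 by limma or with the block (0.0% of all genes). At an unadjusted p under 0.05 there were 0 of 34 in each, against 3.36% of all genes unstimulated and 5.41% with PGN.

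A Gapdh measure of RNA quality and the summed markers of B cells, dendritic cells and erythroid cells did not overlap between the strains. The 3' excess of the Gapdh control (log2) was 0.88 to 1.16 on NOD arrays and 0.72 to 0.80 on NOD.Idd3 arrays. That of the Actb control overlapped between the strains, at 0.425 to 0.58 on NOD arrays and 0.215 to 0.46 on NOD.Idd3 arrays. The summed linear level of 9 B cell markers was 1772 to 5245 in NOD and 848 to 1586 in NOD.Idd3, that of 6 dendritic cell markers 7725 to 9713 and 3471 to 7272, and that of 5 erythroid markers 149 to 288 and 98 to 118. The erythroid sums rest on dim genes, with 4 of the 5 below the 40th percentile of mean value. Those of 10 macrophage markers overlapped (21281 to 25380 and 17358 to 21374), with a median log2 difference of -1.25. The sums of 6 platelet markers overlapped too (1123 to 6467 and 747 to 3267). Of these 6, 5 were lower in NOD.Idd3 in 4 of 4 matched pairs, against 9.89% of all genes. None of these markers passed for the strain difference in limma. An unadjusted p under 0.05 was found for 8 B cell, 3 dendritic cell, 4 erythroid and 8 macrophage markers, against 6.46% of all genes. The block called 5 B cell and 5 macrophage markers lower, against 25 of all 18193 genes. Their part in the strain differences of the 34 genes was not tested.

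Markers of myeloid and other cell types moved with PGN in both directions. Of 65 such markers measured in 9 lists, limma called 3 higher and 9 lower, against 4.86% and 6.4% of all genes. The chemokine receptor genes Ccr7 of the dendritic cell list and Cxcr5 of the B cell list rose by 1.64 ± 0.22 (adjusted p = 0.00237) and 1.68 ± 0.44 (adjusted p = 0.044), and Gzmb, a granzyme of the NK cell list, rose by 1.87 ± 0.39 (adjusted p = 0.0164). Cx3cr1, the fractalkine receptor of the monocyte list, fell by 2.66 ± 0.35 (adjusted p = 0.00236), as did Vsig4 of the macrophage list by 0.67 ± 0.17 and the perforin gene Prf1 of the NK cell list by 0.52 ± 0.14. The summed level of 9 neutrophil markers was 110700 to 144688 in unstimulated and 98537 to 104106 in PGN-treated cells, and 3 of the 9 fell (Cxcr2, Mmp9 and Mmp8). For 8 T cell markers the sums were 3718 to 6410 and 1711 to 2590; Cd3d fell, and Thy1 was higher with PGN in 4 of 4 matched pairs without passing (0.75 ± 0.33, adjusted p = 0.2). For 6 platelet markers the sums were 1855 to 6467 and 747 to 1355; Ppbp and Pf4 fell, and Itga2b was higher in 4 of 4 pairs without passing (0.32 ± 0.17, adjusted p = 0.293). The sums of the other 6 lists overlapped between conditions. In 4 of these lists some genes moved against the call of their list in 4 of 4 matched pairs, without passing. F13a1 of the monocyte list was higher by 0.72, and Mrc1 and Cd68 of the macrophage list by 0.52 and 0.31. Itgax of the dendritic cell list stood at -0.62. Cd79a, Cd79b, Cd22 and Spib of the B cell list stood at -0.69, -0.85, -0.58 and -0.38.

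Of these 12 calls, those of Ccr7, Cx3cr1, Mmp9, Mmp8, Cd3d, Ppbp and Pf4 held in limma with any 1 array left out. Gzmb did not pass without replicate 2 of PGN-treated NOD or replicate 1 of unstimulated NOD.Idd3. Cxcr2 did not pass without either array of unstimulated NOD, either of unstimulated NOD.Idd3 or replicate 2 of PGN-treated NOD.Idd3. Cxcr5 passed in 2 of the 8 fits, those without replicate 1 of PGN-treated NOD or of PGN-treated NOD.Idd3, Vsig4 in 1, that without replicate 1 of unstimulated NOD, and Prf1 in 0 (adjusted p up to 0.143, 0.121 and 0.168). Prf1 also depended on the processing with all arrays kept. It passed in 3 of 7 such alternative limma fits, with an adjusted p from 0.0271 to 0.997. The part of the markers in the PGN differences of the respiratory genes was not tested.

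Promoters of the set were read to see which factor motifs the genes share. RefSeq windows on GRCm38.p6, from 250 bases before to 50 after a gene start, were matched for 24 of the 34 genes. NRF1, GABPA, YY1 and ERRA (the product of Esrra) are transcription factors known to act on respiratory chain genes, and SP1 and NFY are general promoter factors. The NRF1 motif GCGCATGCG was found on either strand in 8.33% of the 24 (Ndufa8 and Uqcrc1) and in 1.95% of all 27025 genes with a window. The GABPA motif CCGGAAG was in 16.7% (Ndufb7, Ndufs3, Sdhb and Sdhd) against 9.93%, and the YY1 motif AAGATGGCG in 8.33% (Ndufa9 and Ndufs4) against 1.64%. The ERRA motif AAGGTCA was in 4.17% (Sdhd) against 5.38%, SP1 GGGCGG in 41.7% against 38.2%, and NFY CCAAT in 6 of the 24 against 41.1%. For comparison, the NF-kB motif GGGANTTCC was in 4.17% (Cox5b) against 1.92%. These shares rest on 1 to 10 genes each and describe letters, not bound sites.

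The promoters with the most kinds of motif, 3 each, belonged to the complex II genes Sdhb (chr4:140961021-140961320, plus strand) and Sdhd (chr9:50603800-50604099, minus strand). Ndufa8 (chr2:36049289-36049588, minus strand) is shown for its NRF1 motif and Ndufs3 (chr2:90904672-90904971, minus strand) for its pair of GABPA motifs. Sequences run 5′ to 3′ in the direction of the gene, and capitals mark motif letters on either strand.
Sdhb: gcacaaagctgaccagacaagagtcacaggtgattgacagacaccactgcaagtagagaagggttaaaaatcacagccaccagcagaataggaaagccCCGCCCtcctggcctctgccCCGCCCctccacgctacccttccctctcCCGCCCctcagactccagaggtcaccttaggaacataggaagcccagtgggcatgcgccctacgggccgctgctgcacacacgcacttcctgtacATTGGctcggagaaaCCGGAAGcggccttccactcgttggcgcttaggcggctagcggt
Sdhd: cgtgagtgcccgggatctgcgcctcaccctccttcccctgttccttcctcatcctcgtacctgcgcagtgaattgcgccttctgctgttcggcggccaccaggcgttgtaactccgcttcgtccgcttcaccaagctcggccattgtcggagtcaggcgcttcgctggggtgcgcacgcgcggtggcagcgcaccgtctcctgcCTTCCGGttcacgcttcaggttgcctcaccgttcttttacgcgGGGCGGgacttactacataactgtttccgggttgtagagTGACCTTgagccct
Ndufa8: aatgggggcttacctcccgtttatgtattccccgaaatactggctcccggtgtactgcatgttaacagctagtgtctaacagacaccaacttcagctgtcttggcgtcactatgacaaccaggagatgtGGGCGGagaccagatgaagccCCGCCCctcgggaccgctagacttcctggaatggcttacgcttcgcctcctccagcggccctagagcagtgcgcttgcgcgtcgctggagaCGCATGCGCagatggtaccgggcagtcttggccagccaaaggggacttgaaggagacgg
Ndufs3: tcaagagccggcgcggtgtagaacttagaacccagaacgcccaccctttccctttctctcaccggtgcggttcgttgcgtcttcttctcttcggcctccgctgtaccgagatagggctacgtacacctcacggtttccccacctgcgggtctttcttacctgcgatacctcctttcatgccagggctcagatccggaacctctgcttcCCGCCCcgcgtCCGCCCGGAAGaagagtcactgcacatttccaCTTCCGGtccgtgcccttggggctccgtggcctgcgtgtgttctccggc

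In the Sdhb window the capitals are SP1 motifs at window positions 99, 119 and 147, an NFY motif at 242 and a GABPA motif at 257, where position 251 is the first base of the gene. In Sdhd they are GABPA at 205, SP1 at 248 and ERRA at 287; in Ndufa8, SP1 at 130 and 151 and NRF1 at 242. In Ndufs3 they are SP1 at 209 and 220, the latter overlapping GABPA at 224, and GABPA at 252. Of the genes that share the GABPA motif, Ndufb7 had a PGN difference of -0.45 ± 0.22, Ndufs3 -0.37 ± 0.21, Sdhd -0.29 ± 0.14 and Sdhb -0.05 ± 0.18. Whether these estimates differ from each other was not tested.

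The regulators themselves showed no call among 16 genes of mitochondrial biogenesis by limma, against 11.3% of all genes (3 at an unadjusted p under 0.05 against 25.0%, and 1 call with the replicate block against 16.9%). Ppargc1a, the coactivator that drives mitochondrial biogenesis, was dim, reading 4.01 and 3.82 in unstimulated NOD, 4.42 and 4.42 in PGN-treated NOD, 4.07 and 4.09 in unstimulated NOD.Idd3, and 4.54 and 4.48 in PGN-treated NOD.Idd3. All of its PGN arrays were above all of its unstimulated arrays, by 0.47 ± 0.14, with an adjusted p of 0.0617 in limma and 0.041 with the block. Gabpa stood at 0.49 ± 0.17 (adjusted p = 0.101), Nrf1 at 0.15 ± 0.14, Tfam, the mitochondrial DNA packaging factor, at -0.28 ± 0.16, Esrra at -0.10 ± 0.14 and Ppargc1b at -0.10 ± 0.21. The sign of Esrra changed with quantile normalization, and that of Ppargc1b when replicate 2 of unstimulated or of PGN-treated NOD was left out.

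The other subunits of the respiratory chain had a median close to that of the 34. Of 40 further subunits measured, 35 were below 0 with a median of -0.21, and limma called 1 of them lower against 6.4% of all genes (5 with the block against 9.73%). That gene was Atpif1, listed with the subunits. It encodes the ATP synthase inhibitory factor, a regulator rather than a subunit, which blocks the enzyme from hydrolysing ATP. Atpif1 read 12.13 and 12.40 in unstimulated NOD, 11.20 and 10.94 in PGN-treated NOD, 12.08 and 12.15 in unstimulated NOD.Idd3, and 11.06 and 11.04 in PGN-treated NOD.Idd3. The PGN arrays were low in both strains with no overlap, and Atpif1 fell by 1.13 ± 0.15 (adjusted p = 0.00203, and 0.00388 to 0.0137 with any 1 array left out). The block added the complex I genes Ndufb10 (-0.52), Ndufb11 (-0.56), Ndufs8 (-0.49) and Ndufv3 (-0.70). The 13 mitochondrially encoded subunits could not be assigned by a single symbol and were not analysed here.

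Among 10 alternative subunits, which replace a standard subunit in some cells or conditions, 1 passed, against 11.3% of all genes. AA467197, also called Nmes1, encodes a small protein that can take the place of NDUFA4 in cytochrome c oxidase. It read 12.99 and 12.85 in unstimulated NOD, 13.80 and 13.79 in PGN-treated NOD, 13.22 and 12.60 in unstimulated NOD.Idd3, and 13.67 and 13.52 in PGN-treated NOD.Idd3. All PGN arrays were higher than all unstimulated arrays, and AA467197 rose by 0.78 ± 0.17 (adjusted p = 0.0212). The call was kept in 2 of 8 fits that left out 1 array, those without replicate 1 of unstimulated NOD or of unstimulated NOD.Idd3, and the adjusted p reached 0.0816 in the others. Ndufa4l2, the hypoxia-linked relative of Ndufa4 (0.26 ± 0.21), and Cox4i2, the alternative form of Cox4i1 (0.11 ± 0.17), did not pass.

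Assembly factors, which build the complexes without staying in them, had 5 of 41 genes lower and 0 higher in limma against 6.4% and 4.86% of all genes, and a median of -0.28. With the block 10 were called lower, against 9.73% of all genes. Sdhaf1, which guards the iron-sulfur subunit of complex II during assembly, fell by 1.05 ± 0.16 (adjusted p = 0.00463): it read 9.01 and 8.99 in unstimulated NOD, 7.89 and 8.24 in PGN-treated NOD, 8.97 and 8.90 in unstimulated NOD.Idd3, and 7.99 and 7.55 in PGN-treated NOD.Idd3. Its groups did not overlap between conditions. Coa6, a copper-related factor of complex IV, fell by 0.91 ± 0.16, and Sdhaf3, a second factor of complex II, by 0.88 ± 0.16 (adjusted p = 0.0107, and 0.0706 with the mean of all probe sets). Uqcc3 of complex III fell by 0.83 ± 0.20 and Nubpl, an iron-sulfur factor of complex I, by 0.76 ± 0.16. Atpif1, Sdhaf1, Coa6 and Sdhaf3 passed in all 8 fits that left out 1 array. Uqcc3 passed in 2 of them, those without replicate 1 of unstimulated NOD or replicate 2 of PGN-treated NOD, and Nubpl in 3, those and the one without replicate 1 of PGN-treated NOD.Idd3.

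**Figure D4:**
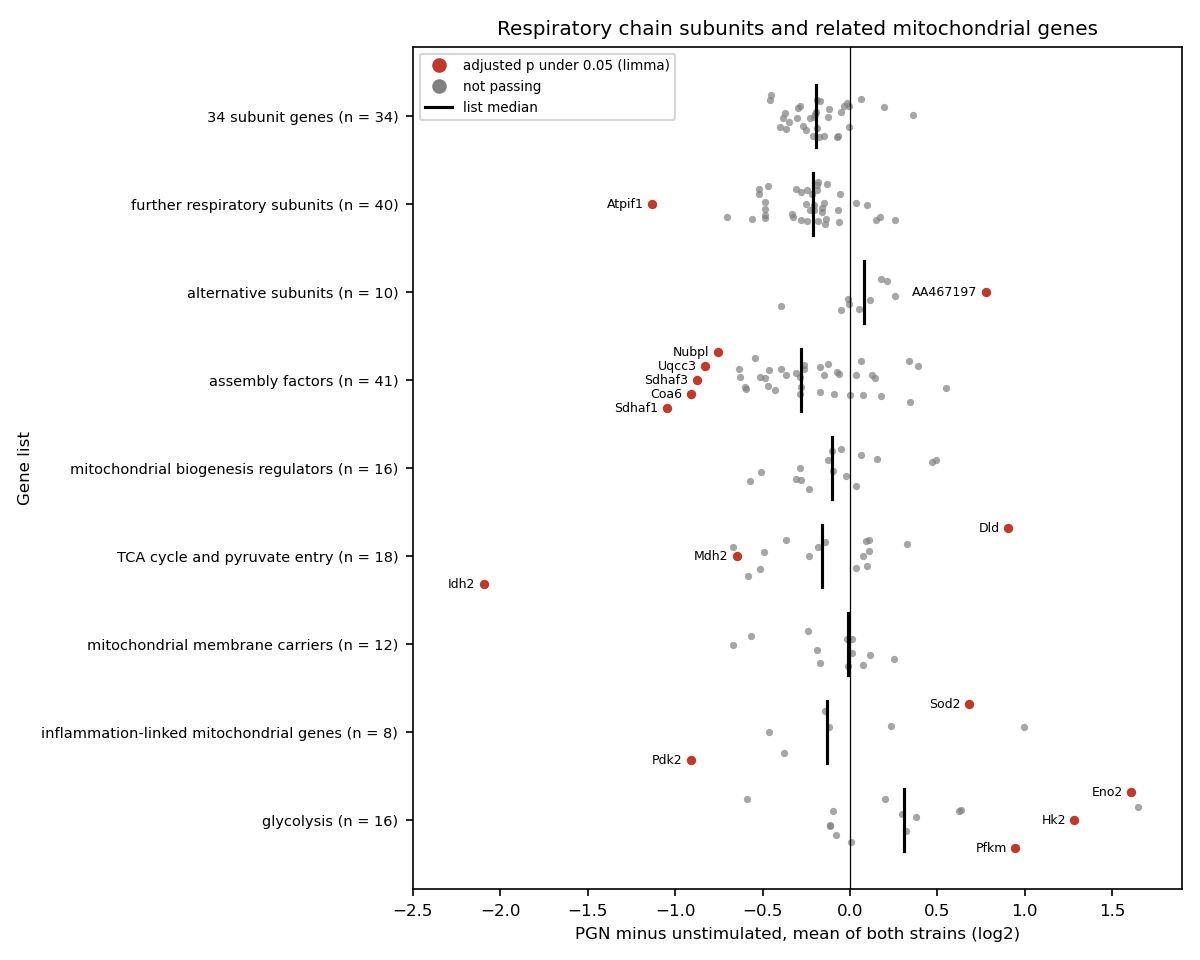
Averaged PGN difference (horizontal axis, log2) of every measured gene of the 34 subunit genes and 8 related lists, with list medians as black bars and genes at a limma adjusted p under 0.05 in red and named. The 34 subunit genes and the 40 further subunits lie mostly left of 0, while the glycolysis list has its median at 0.31.

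The TCA cycle, which supplies NADH and succinate, had 1 higher and 2 lower of 18 genes, with a median of -0.16, against 4.86% higher and 6.4% lower of all genes. With the block it had 1 higher and 5 lower, against 7.21% and 9.73% of all genes. Idh2, the mitochondrial NADP-dependent isocitrate dehydrogenase, read 10.81 and 11.25 in unstimulated NOD, 8.71 and 8.30 in PGN-treated NOD, 11.22 and 11.18 in unstimulated NOD.Idd3, and 9.86 and 9.21 in PGN-treated NOD.Idd3. It was low on every PGN array without overlap, and fell by 2.10 ± 0.20 (adjusted p = 0.000675). Dld, the shared E3 subunit of the pyruvate and 2-oxoglutarate dehydrogenase complexes, read 9.63 and 9.62, then 10.61 and 10.57 with PGN in NOD, and 9.50 and 9.89, then 10.71 and 10.36 with PGN in NOD.Idd3. All of its PGN arrays were above its unstimulated arrays, and it rose by 0.91 ± 0.16 (adjusted p = 0.00801). Mdh2, mitochondrial malate dehydrogenase, fell by 0.65 ± 0.16 (adjusted p = 0.0353) and passed in 1 of the 8 fits with an array left out, that without replicate 1 of unstimulated NOD.

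**Figure D5:**
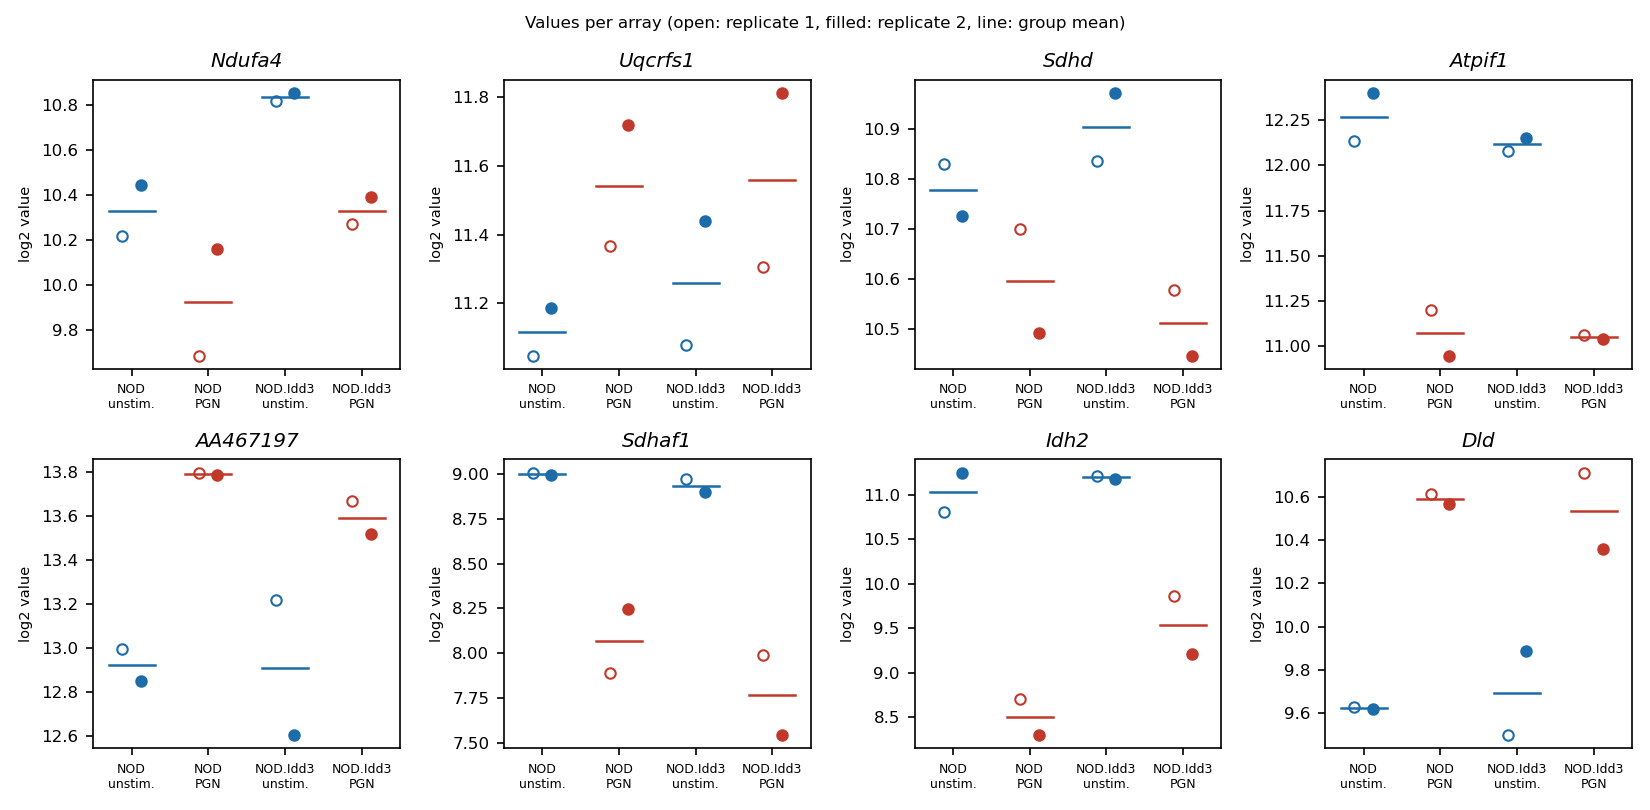
Log2 values on each array for Ndufa4, Uqcrfs1, Sdhd, Atpif1, AA467197, Sdhaf1, Idh2 and Dld (panels with separate vertical axes that do not start at 0), by group on the horizontal axis, with replicate 1 open, replicate 2 filled and the group mean as a line. On the 1 probe set used per gene, PGN and unstimulated arrays do not overlap for Sdhd, Atpif1, AA467197, Sdhaf1, Idh2 and Dld, and overlap for Ndufa4 and Uqcrfs1.

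Glycolysis, which makes ATP outside mitochondria, had 3 higher and 0 lower of 16 genes and a median of 0.31, against 4.86% and 6.4% of all genes. With the block it had 5 higher and 1 lower, against 7.21% and 9.73%. Eno2, an enolase isoform, rose by 1.61 ± 0.17 (adjusted p = 0.000971) and passed with any 1 array left out. Hk2, the inducible hexokinase, rose by 1.28 ± 0.32 (adjusted p = 0.0343), but not without replicate 1 or 2 of unstimulated NOD, replicate 2 of PGN-treated NOD, replicate 1 of unstimulated NOD.Idd3 or replicate 2 of PGN-treated NOD.Idd3 (up to 0.121). Pfkm, a phosphofructokinase, rose by 0.95 ± 0.19 (adjusted p = 0.0139), but not without replicate 1 of unstimulated or replicate 2 of PGN-treated NOD.Idd3 (up to 0.058). Among 12 mitochondrial membrane carriers limma called 0 against 11.3% of all genes, with a median of -0.01. Of these carriers 2 had an unadjusted p under 0.05, against 25.0% of all genes, and the block called 1 lower, against 9.73%.

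Of 8 mitochondrial genes linked to inflammation, 1 rose and 1 fell in limma, against 4.86% and 6.4% of all genes (2 and 1 with the block, against 7.21% and 9.73%). Sod2, the mitochondrial superoxide dismutase, rose by 0.68 ± 0.18 (adjusted p = 0.0448), and Pdk2, a kinase that inhibits pyruvate dehydrogenase, fell by 0.91 ± 0.24 (adjusted p = 0.0458). Each of both calls was kept in 1 of 8 fits with an array left out, that without replicate 1 of unstimulated NOD. Pdk1, a second pyruvate dehydrogenase kinase, went the other way at 0.99 ± 0.35. Its adjusted p was 0.112 in limma and 0.0259 with the block. Pdk3 (-0.14 ± 0.15) and Pdk4 (-0.46 ± 0.18) did not pass. Acod1, which makes the succinate dehydrogenase inhibitor itaconate, was bright on all arrays and differed by 0.24 ± 0.18 (adjusted p = 0.467). Cycs, the electron carrier cytochrome c, stood at 0.26 ± 0.15 and Hif1a, the hypoxia factor, at -0.12 ± 0.21, and neither passed.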

How the data were processed

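Expression was measured on 8 oligonucleotide arrays. The deposited intensity values were made with RMA, per the submitters' processing notes; the version was not given in the sources used here. RMA corrects background, makes array distributions equal and summarises probes, so a shift shared by most genes is removed and depth is not defined; the number of arrays limits precision. The table holds linear values (3.97 to 42906), which were turned into log2 here. Of 45101 probe sets, 34945 had 1 gene symbol in the platform annotation (932 had several, 9160 none, 64 were controls), giving 18193 genes, 18032 of them matched to RefSeq. Of the 34 genes, 19 had several probe sets, and 6 of 31 other probe sets had the opposite sign of averaged PGN difference.

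Limma 3.58.1 (R 4.3.3; lmFit, eBayes) was fitted to 4 groups and all 8 arrays for 7 contrasts, with Benjamini-Hochberg adjustment over all genes and a threshold of 0.05. The fit was tested on simulated data. The replicate numbers were taken as pairing the arrays, since the array names of replicate 1 share 1 marking and the deviations of same-numbered arrays correlated between groups (r = 0.167 to 0.415 over 6 pairs of groups). Alternatives were a replicate block, an array-name suffix (RR1, of unstated meaning) as a term, a filter on dim genes, other probe set choices, quantile normalization, a variance trend and leaving out each array. Unadjusted counts, standard errors and intervals are from the fit without the block unless stated. Values within each replicate number were added after seeing the data. The genes and lists were chosen with earlier results of these data known. Of the 34, genes given on every array were the 3 highest and lowest PGN differences, the 2 highest and lowest strain differences and the highest and lowest means; Sdhd, Cox4i1 and Atp5c1 were added after their values were seen. Genes named from other lists were up to 5 called genes a direction and a fixed set, some of them with array values. Thy1, Itga2b, the other markers that moved against a call, Pdk3 and Pdk4 were named after their values were seen. So were the genes called by the block alone.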

Additional observations from a re-analysis of the deposited data

How the results depend on the processing

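The median PGN difference of the 34 genes stayed below 0 in all alternatives over both strains (-0.28 to -0.10 with 1 array left out, -0.22 within replicate 1 and -0.16 within replicate 2) and in NOD (-0.42 to -0.053 with 1 array left out). In NOD.Idd3 it ran from -0.27 to 0.086 with 1 array left out and was -0.001 with the RR1 term. The difference between strains in PGN effect ran from -0.078 to 0.37, the strain difference from -0.13 to 0.30 unstimulated, 0.02 to 0.39 with PGN and 0.05 to 0.25 averaged. The number of the 34 called was 0 in every fit except 1 (Sdha) with the mean of all probe sets. Over all genes, the replicate block raised the calls from 2049 to 3082 (PGN averaged), 717 to 1586 (NOD), 572 to 1207 (NOD.Idd3) and 0 to 27 (strain averaged), and the RR1 term lowered NOD.Idd3 to 235; the cause was not tested. Leaving out 1 array gave 1111 to 2139, 77 to 876 and 56 to 624 calls for PGN averaged, in NOD and in NOD.Idd3. The block changed no call among the 34. Of the other genes named, markers that did not pass in limma aside, it added Ppargc1a, Itgam (adjusted p = 0.0464), Ndufb10, Ndufb11, Ndufs8, Ndufv3 and Pdk1. Signs turned for Cox5b (0.048 with the RR1 term, 0.042 with the mean of all probe sets, -0.15 to 0.081 with 1 array left out), Cox7c (0.04 with that mean, 0.16 without _x_at and _s_at probe sets, -0.18 to 0.033) and Esrra (0.014 with that mean and with quantile normalization). With 1 array left out they also turned for Atp5b (-0.015 to 0.14), Ppargc1b (-0.28 to 0.076), Cox4i2 (-0.033 to 0.26) and Hif1a (-0.28 to 0.043). A lone array of a group was assumed to vary like the other groups. With 2 arrays a group, single-gene differences of the size seen here were not resolved; RMA values carry no background flag.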
